A study of Mus musculus with 22 samples.

Results

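The genes described here were 10 effector and exhaustion genes of cytotoxic lymphocytes, taken as a named list out of 55487 genes counted in brown adipose tissue (BAT) of mice. They were the granzyme genes *Gzma*, *Gzmb* and *Gzmk*, the granule genes *Prf1* and *Nkg7*, the ligand genes *Ifng* and *Fasl*, the inhibitory receptor genes *Pdcd1* and *Lag3*, and the transcription factor gene *Eomes*. All 10 were matched by symbol to 1 gene each. Each gene was followed in all 22 libraries of the series, 1 library per mouse, and the list was drawn up with earlier results of these data known.

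The untreated cohort held 5 CPEB2-WT (WT) and 5 CPEB2-KO (KO) mice, collected at 21 to 25 weeks. KO mice lack CPEB2, an RNA-binding protein, in all tissues. These mice were kept without food for some hours before collection. The AAV cohort held 3 mice for each pairing of genotype (WT or KO) with virus (AAV-GFP or AAV-PRDM16). The AAV mice had received 20000000000 vector genomes of adeno-associated virus (AAV) in 30 µl into interscapular BAT at 16 weeks, and per the labels BAT was collected 9 weeks later, at 25 weeks, where the text of the study gives in 1 place an age a week later. The virus carried either green fluorescent protein (GFP) or flag-tagged mouse PRDM16, a transcription regulator of brown fat identity. The promoter that drives the AAV2/8 insert is not named in the sources used here, every AAV mouse had received a virus, and the 2 cohorts were counted in separate tables, so they are not compared by a test.

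CD8 T cells and natural killer (NK) cells kill by releasing granules that hold perforin and granzymes, or by showing FasL to a target cell that carries Fas. Both also secrete interferon gamma, which raises antigen presentation and antiviral genes in the cells around them. After long stimulation T cells display the inhibitory receptors PD-1, encoded by *Pdcd1*, and LAG-3, a state called exhaustion, and Eomes is a T-box factor of effector, memory and exhausted cells.

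Members of the list lay apart from each other in the genome, except for a pair of granzyme genes. On GRCm38, *Gzma* (chr13:113093825-113100981) and *Gzmk* (chr13:113171608-113225908) lay on the same strand of chromosome 13, and *Gzmb* on chromosome 14 (chr14:56258838-56262260). *Pdcd1* (chr1:94038305-94052553) and *Fasl* (chr1:161780689-161788495) lay on chromosome 1, and *Prf1* (chr10:61297833-61304680) and *Ifng* (chr10:118441046-118445892) on chromosome 10. *Nkg7* lay at chr7:43437073-43438249, *Lag3* at chr6:124904361-124911705 and *Eomes* at chr9:118478212-118486132. *Ifng* shared 336 exon bases with *Gm49751* on the same strand and *Eomes* shared 118 with the antisense gene *Gm33460*. How reads over shared bases, and the strand, were counted is not given in the sources used here, so these 2 counts are uncertain to that extent.

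The promoters of 4 members are shown as examples. These genes were low together in 1 arm of the AAV cohort and hold a T-box or RUNX motif, letters bound by factor families that act in cytotoxic cells. *Gzma*, which also holds a RUNX motif and also had lower means with AAV-PRDM16, is not shown. RefSeq (GRCm38.p6) gave a promoter for 9 of the 10, and the 250 bases before the RefSeq start of each were searched on both strands for GGTGTGA (T-box) and TGTGGT (RUNX). RefSeq starts can differ from the gene spans above, which come from GENCODE. The *Gzmk* window lies inside its span, and the *Nkg7* and *Prf1* windows run past the start of theirs. The runs below are written 5′ to 3′ on the gene's strand, with both motifs in capitals in either orientation.
Gzmk, chr13:113180966-113181215, minus strand: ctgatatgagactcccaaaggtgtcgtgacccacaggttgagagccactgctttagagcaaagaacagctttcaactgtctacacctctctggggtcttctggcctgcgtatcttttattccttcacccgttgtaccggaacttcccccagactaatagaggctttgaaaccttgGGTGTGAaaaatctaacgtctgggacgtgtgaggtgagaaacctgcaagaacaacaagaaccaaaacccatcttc
Nkg7, chr7:43436888-43437137, plus strand: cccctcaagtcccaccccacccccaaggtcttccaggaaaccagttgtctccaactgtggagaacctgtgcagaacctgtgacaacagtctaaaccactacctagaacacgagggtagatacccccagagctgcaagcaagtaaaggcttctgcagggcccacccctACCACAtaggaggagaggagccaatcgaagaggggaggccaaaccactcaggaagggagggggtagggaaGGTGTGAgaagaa
Gzmb, chr14:56262335-56262584, minus strand: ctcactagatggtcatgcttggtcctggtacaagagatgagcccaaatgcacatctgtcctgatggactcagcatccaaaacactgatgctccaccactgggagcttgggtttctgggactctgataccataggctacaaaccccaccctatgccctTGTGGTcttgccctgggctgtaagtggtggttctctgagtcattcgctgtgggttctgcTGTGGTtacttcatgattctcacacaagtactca
Prf1, chr10:61297586-61297835, plus strand: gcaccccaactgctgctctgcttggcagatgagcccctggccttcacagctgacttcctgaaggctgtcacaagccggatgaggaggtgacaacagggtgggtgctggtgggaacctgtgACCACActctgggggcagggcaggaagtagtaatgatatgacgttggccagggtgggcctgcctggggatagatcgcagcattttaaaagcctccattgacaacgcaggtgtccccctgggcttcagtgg

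The T-box letters stood in 2 of the 9 promoters, *Gzmk* and *Nkg7*, and in 3.33% of 32817 promoters of the same length. The RUNX letters stood in 4 of the 9 (*Gzma*, *Gzmb*, *Prf1* and *Nkg7*) and in 14.0% of all. Searched the same way, TGGAAA (NFAT) stood in 1 of the 9, *Gzma*, and in 18.6% of all, and TGANTCA (AP-1) in 1, *Gzmb*, and in 6.75%. CGGAAG (ETS) stood in *Fasl* and in 13.6% of all, and TATAAA, the core promoter box, in *Ifng* and in 12.4%. These matches describe letters in a window and were not set against the levels below.

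Libraries held 55320927 to 162721202 counts in the untreated cohort and 61636889 to 143005309 in the AAV cohort, and levels are given as CPM, counts scaled to the library total after TMM scaling. A count of 0 in 1 library allows up to 3 counts, or between 0.0186 and 0.0596 CPM in the untreated libraries, counting error only. In the AAV cohort 711 to 882 genes of a library stood at exactly 4 counts, against 487 to 610 at 3 and 243 to 312 at 5. Untreated WT replicates 1 and 2 had the same excess, with 785 and 827 genes at 4 counts against 515 and 522 at 3. The other untreated libraries held 528 to 633 at 4 against 565 to 661 at 3. Counts of few reads were thus not spread like single independent molecules in the AAV libraries and in those WT replicates. The untreated WT libraries were therefore not alike in this, and the comparison was also run without replicates 1 and 2. Labels were checked before levels were read. The labels give male mice, but untreated WT replicates 3 and 5 and KO replicates 1, 3, 4 and 5 held at most 1.17 CPM over 4 Y-linked genes and at least 104 CPM of *Xist*, and WT replicate 4 held both, at 115.7 and 14.0 CPM. The library labelled KO replicate 1 held 11.7 CPM of *Cpeb2*, within the range of WT (7.70 to 14.3 CPM), where the other KO libraries held 2.11 to 5.78 CPM. In the AAV cohort every library held Y-linked transcripts, *Cpeb2* and *Prdm16* followed the labels, and *Prdm16* stood at 45.9 to 128 CPM with AAV-PRDM16 against 23.9 to 40.2 CPM with AAV-GFP. BAT markers were abundant throughout, with 2600 to 10800 CPM summed over *Ucp1*, *Cidea*, *Dio2*, *Elovl3* and *Cox8b*.

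Levels of all 10 genes were low for an adipose tissue library, and 9 of them were at 0 in at least 1 library. *Lag3* was the exception, with 1.15 to 9.28 CPM in every library. Compared per length, as TPM, a level scaled by exon length, *Lag3* was the highest of the 10 in 18 of 22 libraries and *Nkg7* in the other 4, all of which had received AAV-GFP. In KO + AAV-GFP mice *Nkg7* stood at 0.967 to 6.44 TPM, *Lag3* at 1.31 to 3.08 TPM and *Pdcd1* at 0.237 to 2.41 TPM, ranges that overlap. *Gzmb* (0.273 to 1.41 TPM), *Gzma* (0.259 to 1.11 TPM) and *Gzmk* (0.330 to 1.09 TPM) overlapped each other too, and *Eomes* (0.0942 to 0.656 TPM) overlapped *Prf1* (0.174 to 0.597 TPM). With AAV-PRDM16 the order was plain only at the top, where *Lag3* (0.859 to 2.09 TPM) exceeded every other member in each of the 6 libraries.

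**Figure D1:**
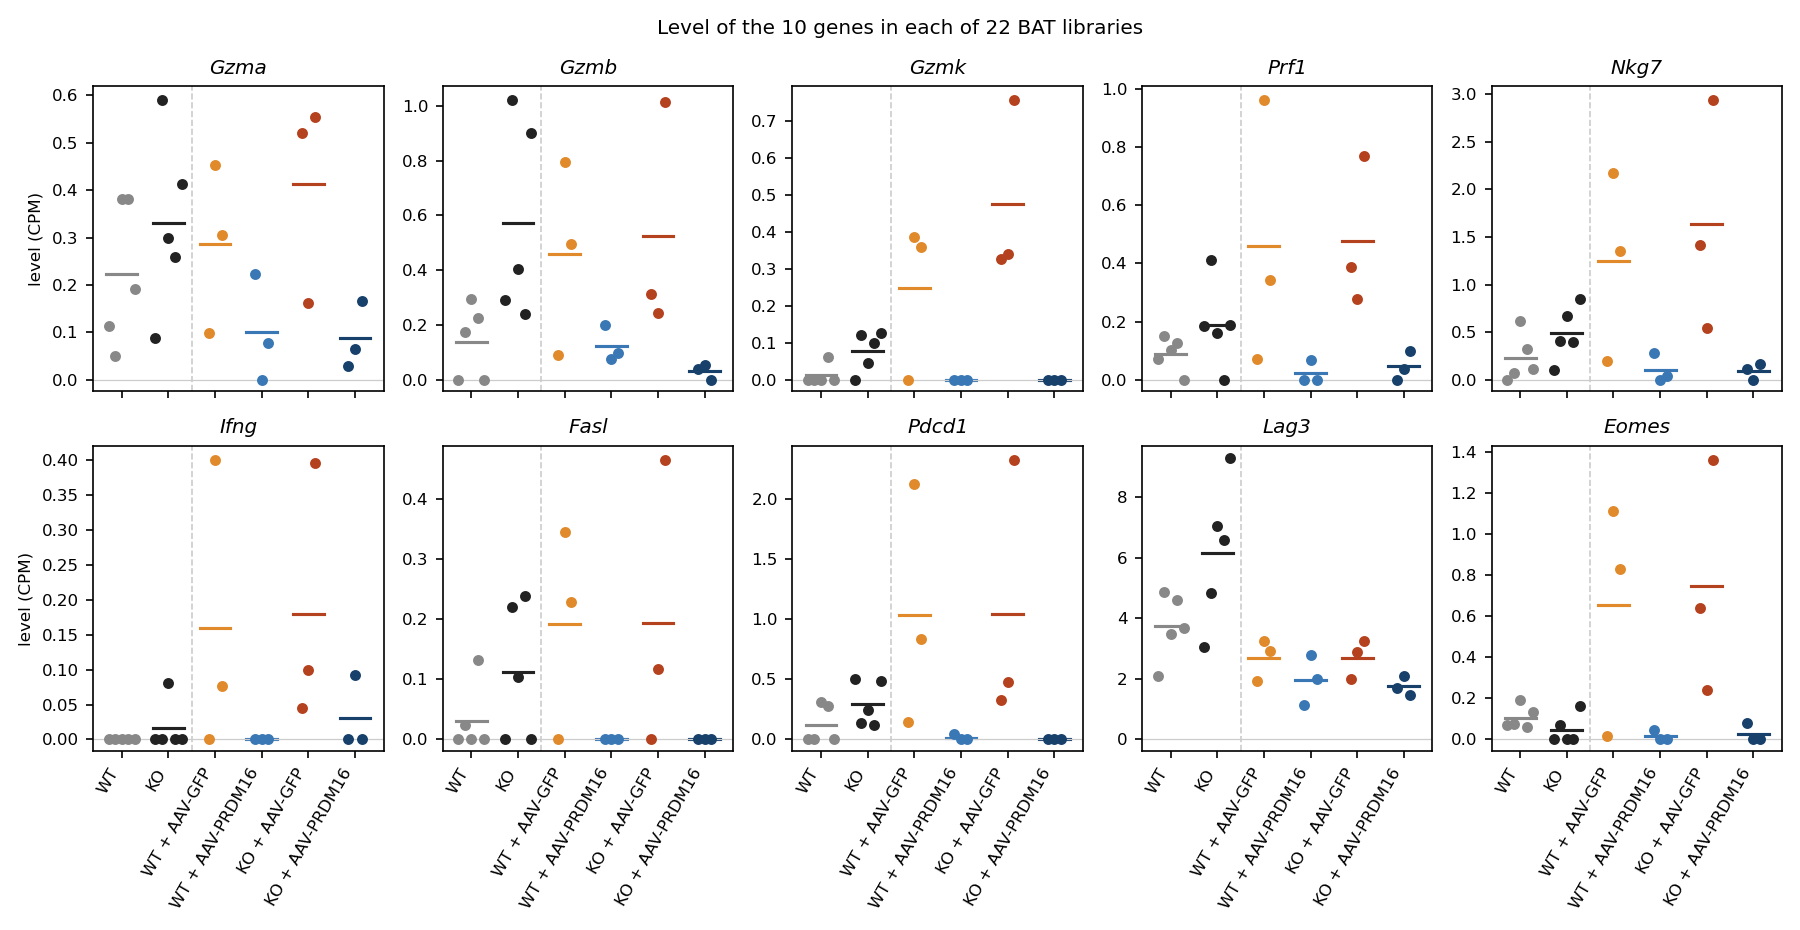
Each panel plots 1 gene, with the level in CPM on a linear vertical axis and the 6 groups on the horizontal axis; points are libraries, bars are group means, and the dashed line separates the untreated from the AAV cohort. *Gzmk*, *Fasl* and *Pdcd1* sit at or near 0 in all 6 AAV-PRDM16 libraries, while *Lag3* sits between 1.15 and 2.78 CPM there.

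The comparison of AAV-PRDM16 with AAV-GFP asks how these genes differed between the viruses in each genotype. Each virus carried its own insert, and no AAV mouse went without a virus. Lower levels with PRDM16 and higher levels with GFP can therefore not be told apart, and the part of each insert was not tested. These genes were lower with AAV-PRDM16 in both genotypes, and most members were at or near 0 in those libraries. Averaged over WT and KO, 10 of 10 were lower at an unadjusted p under 0.05, and 0 of 10 passed an adjusted p of 0.05 (edgeR quasi-likelihood test, Benjamini-Hochberg adjustment, which holds for every adjusted p given without another name). Among all 18899 genes tested, 7.02% were lower at an unadjusted p under 0.05 and 0.037% passed the adjusted threshold. DESeq2, which called more genes altogether, passed 6 of the 10 at an adjusted p of 0.05 (*Pdcd1*, *Gzmk*, *Eomes*, *Gzmb*, *Prf1* and *Nkg7*) and 3.19% of all genes. The filter asked for a set level in 3 libraries, and of the members only *Lag3* and *Nkg7* reached it in 3 AAV-PRDM16 libraries. The other 8, among them *Pdcd1*, *Gzmk*, *Fasl* and *Eomes* with no such library, entered the test through the AAV-GFP libraries where they were high, so their calls and any count over the members are a description and not support. The BAT was sequenced as bulk tissue, and fewer lymphocytes and less of these transcripts per lymphocyte cannot be told apart.

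*Pdcd1*, the gene of the inhibitory receptor PD-1, had the smallest unadjusted p of the members averaged over the genotypes (7.84e-05). With AAV-GFP it stood at 0.143, 2.13 and 0.838 CPM in WT and at 0.328, 0.476 and 2.33 CPM in KO. With AAV-PRDM16 it stood at 0.0468, 0 and 0 CPM in WT and at 0 in all 3 KO libraries. No library with AAV-PRDM16 reached the lowest with AAV-GFP in either genotype, and *Pdcd1* was the only member whose 6 libraries with each virus did not overlap, where 0.487% of all genes were lower in this way. In KO its mean was at least 93.5-fold lower, taking 3 counts over the group as the limit of a count of 0. That limit covers counting error only. This fold and every later one given as at least leave out the spread between the AAV-GFP libraries. In WT the log2 fold change was -6.04 (SE 1.44), from 440 counts to 4, with an adjusted p of 0.459. Averaged over the genotypes the adjusted p of edgeR was 0.0527, and the log2 fold change was -7.92 (SE 1.24).

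Granule genes also had lower means with AAV-PRDM16 in both genotypes, though not all ranked the AAV-GFP libraries as *Pdcd1* did. *Gzmk*, a granzyme of memory and exhausted CD8 T cells, stood at 0, 0.386 and 0.358 CPM in WT + AAV-GFP and at 0.328, 0.341 and 0.757 CPM in KO + AAV-GFP. It was at 0 in all 6 AAV-PRDM16 libraries, and therefore at least 23.1-fold lower in WT and at least 42.6-fold lower in KO. The KO groups did not overlap, and in WT the overlap came from replicate 1 with AAV-GFP, which was also at 0.

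*Gzmb*, the granzyme that cleaves caspases in the target cell, stood at 0.0896, 0.793 and 0.495 CPM in WT + AAV-GFP and at 0.199, 0.0774 and 0.0964 CPM in WT + AAV-PRDM16. In KO it stood at 0.313, 0.242 and 1.01 CPM with AAV-GFP and at 0.0397, 0.0555 and 0 CPM with AAV-PRDM16. The groups overlapped in WT and not in KO. Its log2 fold change was -3.88 (SE 0.99) in KO, with an adjusted p of 0.31, and -1.89 (SE 0.88) in WT, with an adjusted p of 0.691.

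*Nkg7*, which encodes a granule membrane protein needed for degranulation, had the highest mean per length of the members in both AAV-GFP groups, 2.19 TPM in WT and 3.19 TPM in KO. It stood at 0.197, 2.18 and 1.36 CPM in WT + AAV-GFP and at 0.281, 0 and 0.0386 CPM in WT + AAV-PRDM16. In KO it stood at 1.42, 0.547 and 2.94 CPM with AAV-GFP and at 0.109, 0 and 0.167 CPM with AAV-PRDM16. Again the KO groups did not overlap, and the WT groups overlapped through replicate 1 of both viruses. Its log2 fold change was -4.24 (SE 1.31) in KO and -3.57 (SE 1.25) in WT, with adjusted p of 0.397 and 0.527.

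*Prf1*, the gene of pore-forming perforin, stood at 0.0717, 0.963 and 0.343 CPM in WT + AAV-GFP and at 0, 0.0664 and 0 CPM in WT + AAV-PRDM16. In KO it stood at 0.387, 0.278 and 0.771 CPM with AAV-GFP and at 0, 0.0370 and 0.1002 CPM with AAV-PRDM16. The groups did not overlap in either genotype, with log2 fold changes of -4.33 (SE 1.36) in WT and -3.50 (SE 1.29) in KO and adjusted p of 0.48 and 0.563. In WT the gap was narrow, 0.0717 against 0.0664 CPM, or 8 against 6 counts. *Gzma*, a granzyme with tryptase activity, stood at 0.0986 to 0.454 CPM in WT + AAV-GFP and 0 to 0.222 CPM in WT + AAV-PRDM16, and at 0.162 to 0.556 and 0.0297 to 0.167 CPM in the KO groups. Its groups overlapped in both genotypes.

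*Eomes*, the transcription factor of the list, stood at 0.0179, 1.11 and 0.830 CPM in WT + AAV-GFP and at 0.0468, 0 and 0 CPM in WT + AAV-PRDM16. In KO it stood at 0.641, 0.242 and 1.36 CPM with AAV-GFP and at 0.0793, 0 and 0 CPM with AAV-PRDM16. The KO groups did not overlap, and WT replicate 1 with AAV-GFP, with 2 counts, lay below the highest AAV-PRDM16 library. Its log2 fold change was -4.66 (SE 1.5) in KO and -5.37 (SE 1.61) in WT, with adjusted p of 0.435 and 0.473.

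The ligand genes had few counts. *Fasl*, which triggers death through Fas, stood at 0, 0.346 and 0.228 CPM in WT + AAV-GFP and at 0, 0.117 and 0.465 CPM in KO + AAV-GFP. It was at 0 in all 6 AAV-PRDM16 libraries, and was at least 17.8-fold lower in WT and at least 17.4-fold lower in KO, while 1 AAV-GFP library of each genotype was also at 0. *Ifng* stood at 0, 0.400 and 0.0761 CPM in WT + AAV-GFP and at 0.0447, 0.0987 and 0.396 CPM in KO + AAV-GFP. It was at 0 in all WT + AAV-PRDM16 libraries, at least 14.8-fold lower, and at 0, 0.0925 and 0 CPM in KO + AAV-PRDM16, so that the KO groups overlapped.

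*Lag3* did not share the near absence of the others. It stood at 1.93, 3.26 and 2.91 CPM in WT + AAV-GFP and at 1.15, 2.78 and 1.99 CPM in WT + AAV-PRDM16. In KO it stood at 1.98, 2.88 and 3.24 CPM with AAV-GFP and at 1.72, 2.08 and 1.45 CPM with AAV-PRDM16. Both pairs of groups overlapped, and the log2 fold changes were -0.45 (SE 0.32) in WT and -0.63 (SE 0.33) in KO, with adjusted p of 0.833 and 0.921. *Ptms*, a gene on the same strand that ends 1976 bases before *Lag3* begins, was looked at after the values were seen. It stood at 166 to 234 CPM in the AAV cohort and 191.5 to 671.6 CPM in the untreated cohort, and *Lag3* at 0.508 to 1.80 and 0.964 to 1.95 CPM per 100 CPM of *Ptms*. Its part in the *Lag3* counts was not tested.

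Within WT, 7 of 10 members were lower with AAV-PRDM16 at an unadjusted p under 0.05, where 5.19% of all genes were, and 2 of 10 had groups that did not overlap, where 7.76% of all genes were lower in this way. Within KO the counts were 7 of 10 against 5.1% of all genes, and 6 of 10 against 6.05%. At an adjusted p of 0.05 edgeR called 0 of 10 in WT and 0 of 10 in KO, and 0% of all genes in each. DESeq2 called 3 of the 8 members it gave an adjusted p in WT and 0.873% of all genes, and 3 of 10 members in KO and 1.44% of all genes. Averaged over the genotypes the median log2 fold change of the 10 was -4.33, also with *Gzmk* and *Fasl* set to their bounds, and that of all genes tested was -0.01.

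The effect of the virus was then compared between the genotypes. In the test of the interaction 0 of 10 members had an unadjusted p under 0.05, where 3.19% of all genes had, and 0 of 10 passed the adjusted threshold, as did 0% of all genes (edgeR). The smallest unadjusted p among the members was 0.146, for *Gzmb*, and DESeq2 called 0 of 10 and 0.0053% of all genes. A difference between the genotypes was therefore not detectable with 3 mice in a group, which does not show that the effects were alike.

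Libraries within the AAV-GFP groups differed widely. Summed over the 9 members other than *Lag3*, a sum chosen after the values were seen, WT + AAV-GFP replicates 1, 2 and 3 held 0.619, 8.76 and 4.83 CPM and KO + AAV-GFP replicates held 3.98, 2.50 and 10.6 CPM. WT + AAV-PRDM16 replicates held 0.796, 0.144 and 0.212 CPM, and KO + AAV-PRDM16 replicates 0.258, 0.250 and 0.434 CPM. WT + AAV-GFP replicate 1 thus lay among the AAV-PRDM16 libraries, and without it edgeR called 6 of 10 members at an adjusted p of 0.05, averaged over the genotypes (*Gzmk*, *Pdcd1*, *Eomes*, *Gzmb*, *Nkg7* and *Prf1*), while the calls over all genes went from 7 to 352, or 1.81%. Without KO + AAV-GFP replicate 1 it called *Pdcd1* alone of the members, and 211 genes in all, or 1.08%. Leaving out the highest AAV-GFP library of each genotype, an alternative chosen after the values were seen, brought the members lower at an unadjusted p under 0.05 in WT from 7 to 3.

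T cell markers followed the members across the AAV-GFP libraries, and less closely within the AAV-PRDM16 libraries. The 9 T cell markers (*Cd3e*, *Cd3d*, *Cd3g*, *Cd247*, *Cd2*, *Cd5*, *Lck*, *Trac* and *Trbc2*) summed to 2.92 to 20.1 CPM in WT + AAV-GFP and 6.87 to 27.5 CPM in KO + AAV-GFP, and to 1.42 to 2.00 and 2.08 to 3.37 CPM with AAV-PRDM16. With AAV-PRDM16 the sum of the 9 members without *Lag3* was highest in WT replicate 1, at 0.796 CPM beside a T cell sum of 2.00 CPM. The T cell sum was highest in KO replicate 3, at 3.37 CPM beside 0.434 CPM of the members. In the average over the genotypes 9 of 9 were lower at an unadjusted p under 0.05, as were *Cd8a* and *Cd8b1*, 2 of 2 CD8 markers, and 6 of 6 NK markers. *Cd5*, *Cd8b1* and, of the NK markers, *Ncr1*, *Klre1*, *Klra8*, *Klra4* and *Klri2* entered the test through the AAV-GFP libraries. The counts of these lists are therefore a description and not support. None of the 9 T cell markers was at 0 in all libraries of a group, whereas *Klra4*, an NK receptor gene, was at 0 in all 6 AAV-PRDM16 libraries. Across the 12 AAV libraries the mean standardized level of the members correlated with the T cell sum (Pearson's r = 0.975), the CD8 sum (0.983) and the NK sum (0.980). The r was also high for gamma delta T cells (0.936), all leukocytes (0.926), CD4 T cells (0.916), dendritic cells (0.858) and plasma cells (0.845), and was 0.762 for macrophages, 0.758 for B cells, 0.0169 for mast cells and -0.059 for lymph node stroma. All 3 leukocyte and 4 dendritic cell markers were lower at an unadjusted p under 0.05 as well. All of these share libraries and scaling and are given as a description. The part of lymphocyte number in the members' levels was not tested.

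**Figure D2:**
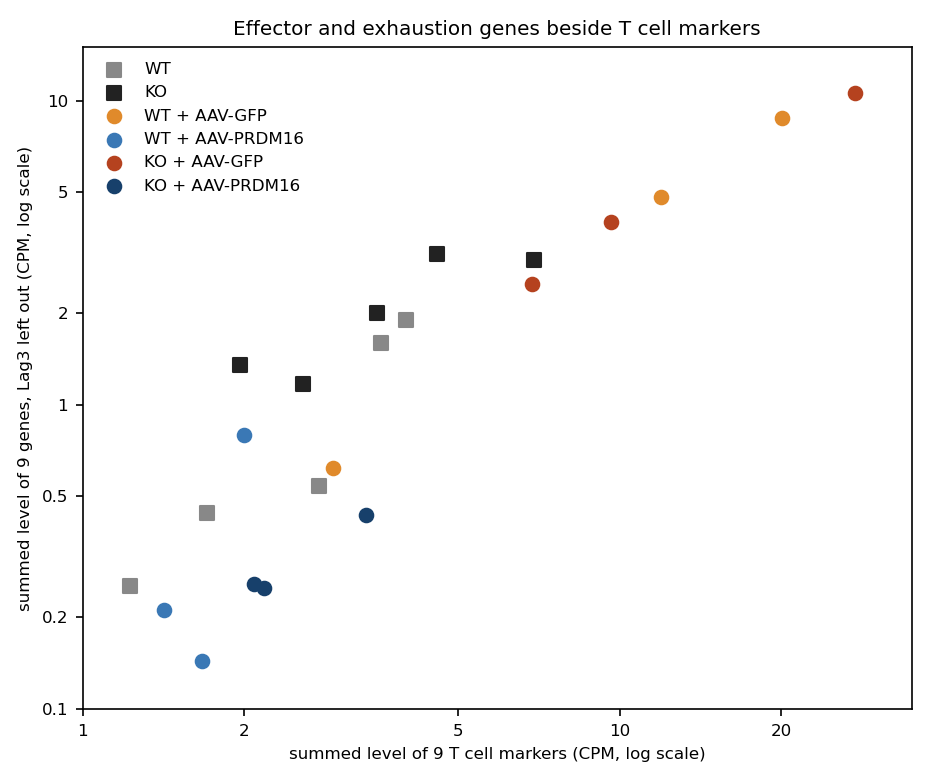
Points are the 22 libraries, with the summed level of 9 T cell markers on the horizontal and of 9 members without *Lag3* on the vertical axis, both in CPM on log scales; colours give the group, squares the untreated cohort. Of the 6 AAV-GFP libraries 5 lie at the upper right and WT + AAV-GFP replicate 1, at 2.92 and 0.619 CPM, lies with the AAV-PRDM16 libraries.

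Set against these markers within a library, the 9 members other than *Lag3* held 21.2, 43.6 and 40.5 counts per 100 T cell marker counts in WT + AAV-GFP and 41.2, 36.4 and 38.6 in KO + AAV-GFP. They held 39.8, 8.61 and 14.97 in WT + AAV-PRDM16 and 12.4, 11.5 and 12.9 in KO + AAV-PRDM16. In KO the ranges did not overlap, and in WT replicate 1 of each virus crossed over. With AAV-PRDM16 these ratios rest on 13 to 68 counts of the members and 147 to 235 of the markers. They also depend on the markers chosen. *Cd247* fell least of the 9, from 604 to 188 counts in WT and from 800 to 318 in KO, and weighed more in the AAV-PRDM16 sums. *Cd3e*, for example, went from 794 to 63 and from 844 to 60. *Cd8a*, which is not among the 9, went from 801 to 54 and from 1256 to 32. A ratio to other markers was not computed. *Lag3* had higher means with AAV-PRDM16, at 16.2 to 66.0 counts per 100 in WT + AAV-GFP and 57.3 to 166 in WT + AAV-PRDM16, which overlap, and at 11.8 to 41.9 and 43.1 to 95.7 in the KO groups, which do not. The ratio was chosen after the values were seen, and no test was run on it.

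**Figure D3:**
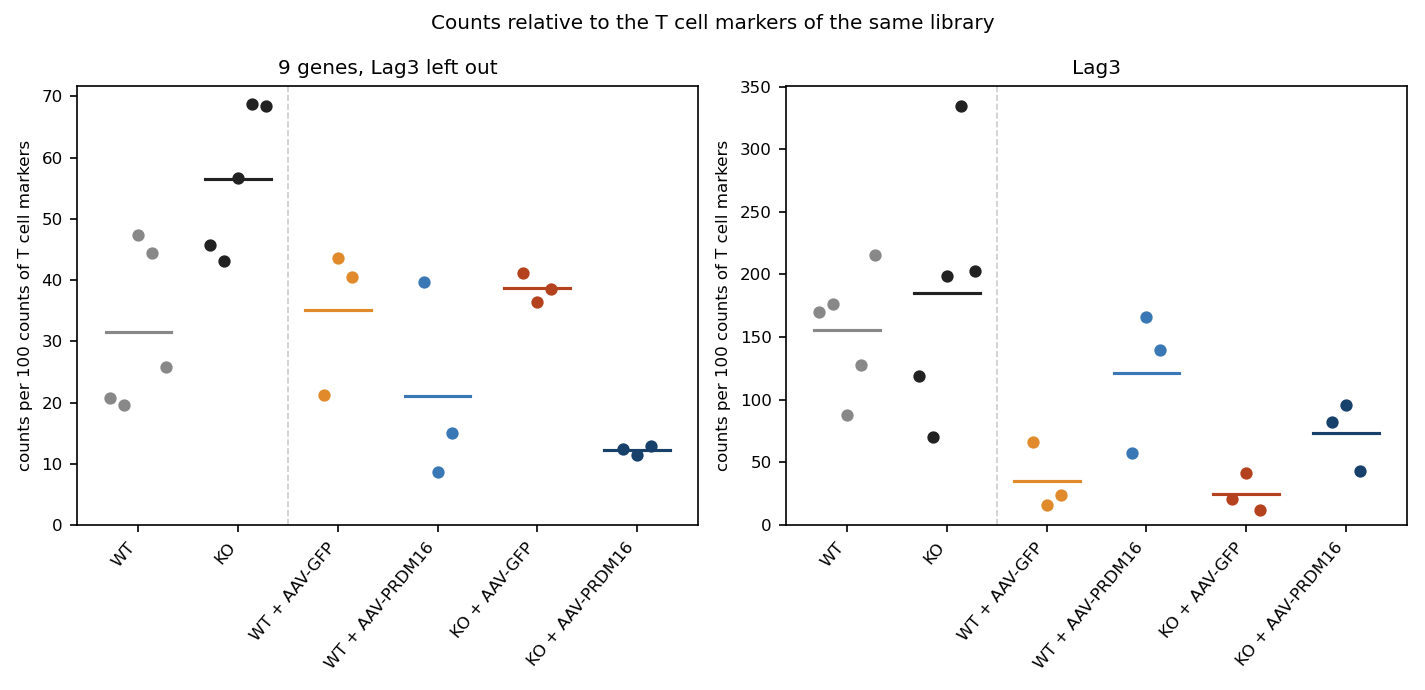
Counts per 100 counts of the 9 T cell markers of the same library, for the 9 members without *Lag3* on the left and for *Lag3* on the right; points are libraries, bars group means, and both vertical axes are linear and start at 0. The 3 KO + AAV-PRDM16 libraries sit at 11.5 to 12.9 on the left, under the 36.4 to 41.2 of KO + AAV-GFP, and above them on the right. In both genotypes *Cd247* makes up more of the marker counts with AAV-PRDM16 than with AAV-GFP, so both panels depend on the markers chosen.

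Genes most like the members were sought over all genes tested. In the AAV cohort the 8 with the highest r with the members' mean standardized level were *D630039A03Rik* (0.981), *Ptpn5* (0.978), *Cd8a* (0.977), *Mx1* (0.973), *Gimap3* (0.970), *Grap2* (0.969), *Cd3e* (0.969) and *Ptpn22* (0.967), over 12 libraries. The first 2 were near the limit of detection, *D630039A03Rik* at 0 to 0.156 CPM and *Ptpn5* at 0 to 0.278 CPM, so their r rests on few counts. Among the 8, *Cd8a* and *Cd3e* encode T cell surface proteins and *Grap2* and *Ptpn22* signal below the T cell receptor, while *Mx1* is an interferon-induced antiviral gene. Of the members themselves, each against the mean of the others, *Lag3* (r = 0.651) and *Gzma* (0.732) followed least and *Pdcd1* (0.966) and *Gzmk* (0.964) most.

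Other genes of the pathway were taken from lists by role and compared in the average over the genotypes, where 7.02% of all genes were lower at an unadjusted p under 0.05 and none of the listed genes passed the adjusted threshold of edgeR. Listed genes near 0 with AAV-PRDM16, such as *Ncr1*, entered the test through the AAV-GFP libraries, as most members did. The counts and medians of the lists are therefore a description and not support. Of 15 killer cell receptor genes 14 were lower at an unadjusted p under 0.05, with a median log2 fold change of -2.93. *Fcgr3*, an IgG Fc receptor, stood at a mean of 2.999 against 7.02 CPM, *Slamf7* at 0.636 against 2.99, *Tyrobp*, a signalling adaptor, at 1.19 against 2.57 and *Klrk1*, the receptor NKG2D, at 0.179 against 1.30 CPM. *Fcgr3* and *Tyrobp* are also expressed by macrophages, whose 6 markers were all lower at an unadjusted p under 0.05.

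Of 14 genes of inhibitory receptors and ligands 12 were lower at an unadjusted p under 0.05, with a median log2 fold change of -1.71. The 4 with the highest level were *Cd274*, the ligand PD-L1 of PD-1, at a mean of 57.6 against 60.9 CPM (log2 fold change -0.08, SE 0.11), *Vsir* at 22.4 against 28.1, *Lgals9* at 17.0 against 20.7 and *Entpd1* at 5.58 against 7.38 CPM. Of 12 granule and release genes tested, of 18 listed, 8 were lower at an unadjusted p under 0.05, with a median of -0.73. *Lyst* (33.1 against 35.9 CPM), *Stxbp2* (33.3 against 31.3), *Srgn* (15.7 against 17.9) and *Ctsc* (6.25 against 13.4), the 4 highest, are used in granules of many cell types, and only *Ctsc*, the protease that activates granzymes, was lower at an unadjusted p under 0.05 among them.

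Of 15 transcription factors 8 were lower at an unadjusted p under 0.05, with a median of -0.63. *Bhlhe40*, *Zeb2*, *Nfatc1* and *Irf4*, the 4 highest, had log2 fold changes of 0.00 to -0.15 and stood at means of 9.75 to 83.1 CPM with AAV-PRDM16. Of 11 inducing cytokine and receptor genes tested, of 16 listed, 7 were lower, with a median of -1.94. *Il2rb*, the interleukin 2 and 15 receptor chain of T and NK cells, stood at 0.446 against 4.23 CPM and *Il2rg* at 2.44 against 5.23, beside *Il15ra* at 50.3 against 46.2 and *Il2ra* at 1.09 against 1.45 CPM. The genes of the receptors and signalling of FasL and interferon gamma had a median of -0.03. Among them *Jak1*, a kinase bound to the interferon gamma receptor, stood at 100.2 against 101.6 CPM, *Cflar*, an inhibitor of death signalling by Fas, at 73.6 against 78.6 CPM and *Ifngr1*, a chain of the interferon gamma receptor, at 66.5 against 60.2 CPM.

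**Figure D4:**
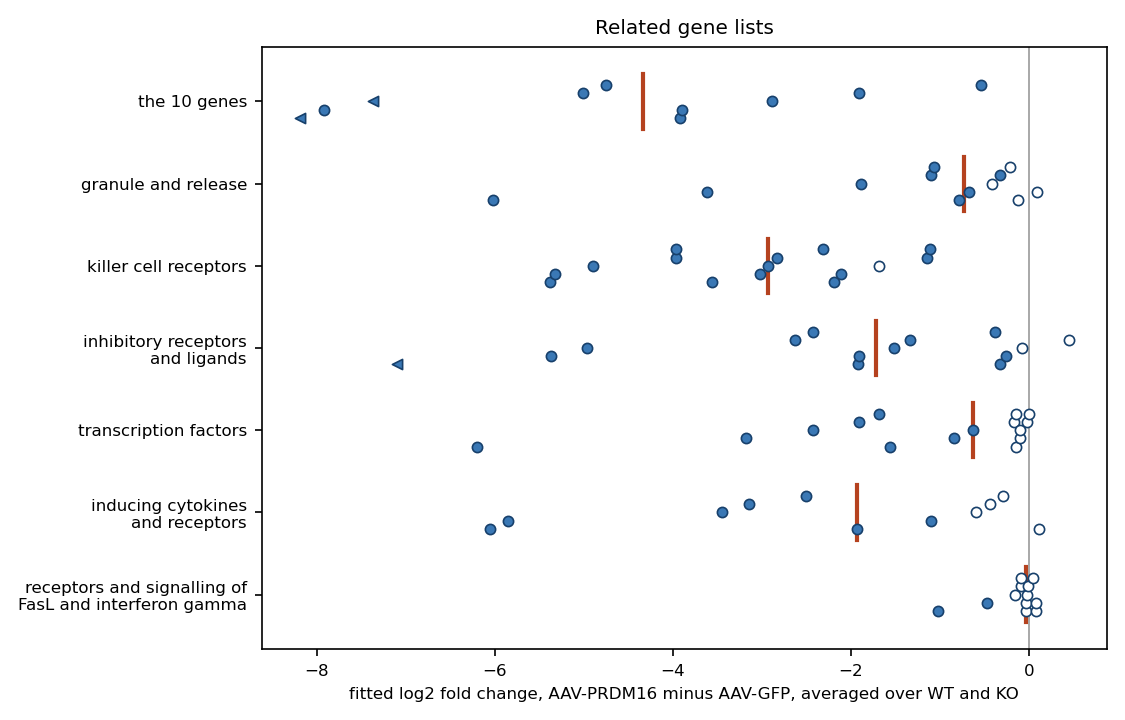
Points are genes tested, placed by the fitted log2 fold change of AAV-PRDM16 minus AAV-GFP averaged over WT and KO; filled points have an unadjusted p under 0.05, triangles are genes at 0 in all 6 AAV-PRDM16 libraries, whose fitted value is no bound, and red bars are list medians. The medians run from -4.33 for the 10 members to -0.03 for the receptors and signalling of FasL and interferon gamma, and no listed gene passed an adjusted p of 0.05. Genes near 0 with AAV-PRDM16 entered the test through the AAV-GFP libraries, so the medians are a description.

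The comparison of KO with WT under the same virus asks what the loss of CPEB2 did to these genes. With AAV-GFP 0 of 10 members had an unadjusted p under 0.05, where 9.18% of all genes had, and 0 of 10 passed the adjusted threshold, where 0.0529% did (edgeR). The smallest unadjusted p was 0.442, for *Gzmk*. DESeq2 gave 4 of the members an adjusted p and called 0 of 4, and 1.64% of all genes. All 10 members overlapped between the genotypes, where 13.4% of all genes did not, with the highest *Pdcd1* level at 2.13 CPM in WT and 2.33 CPM in KO. The macrophage markers, in contrast, had 6 of 6 higher in KO at an unadjusted p under 0.05, at 67.2 to 179 CPM against 31.3 to 57.8 CPM.

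With AAV-PRDM16 0 of 10 had an unadjusted p under 0.05, where 13.7% of all genes had, and 0 of 10 passed the adjusted threshold, where 0.0476% did (edgeR), with a smallest unadjusted p of 0.095, for *Gzmb*. *Gzmb* was also the one member of 10 without overlap, where 22.8% of all genes did not overlap, at 0.0774 to 0.199 CPM in WT and 0 to 0.0555 CPM in KO, a difference between 34 and 10 counts. Averaged over the viruses 0 of 10 had an unadjusted p under 0.05 against 18.3% of all genes, and 0 of 10 passed the adjusted threshold against 2.18% (edgeR). DESeq2 called 0 of the 8 members with an adjusted p and 3.71% of all genes with AAV-PRDM16, and 0 of 7 and 9.93% averaged over the viruses. Levels with AAV-PRDM16 were at the limit of detection for most members, so a genotype difference there was not detectable at this depth.

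KO + AAV-PRDM16 was also set against WT + AAV-GFP, the comparison that asks how far the treated KO tissue was from control tissue. It shares its libraries with the comparisons above. In it 7 of 10 members were lower at an unadjusted p under 0.05, against 4.42% of all genes, and 3 of 10 (*Pdcd1*, *Gzmb* and *Nkg7*) had groups that did not overlap, against 7.09%. At an adjusted p of 0.05 edgeR called 0 of 10 and 0.00529% of all genes, and DESeq2 called *Pdcd1*, *Gzmk* and *Gzmb* and 0.832% of all genes. *Pdcd1* was at least 92.9-fold lower, and *Gzma*, *Ifng* and *Lag3* were the members whose unadjusted p exceeded 0.05.

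The untreated cohort asks the same of the genotypes without virus. *Gzmk*, *Ifng*, *Fasl* and *Eomes* did not pass the filter on low counts, and 6 members were tested. Of these 0 of 6 had an unadjusted p under 0.05, where 15.9% of all genes had, and 0 of 6 passed an adjusted p of 0.05, as did 0% of all genes (edgeR). DESeq2 gave 2 of 6 an unadjusted p under 0.05, as it did 19.6% of all genes, and passed 0 of 6 and 0% of all genes. With a term for libraries that hold Y-linked transcripts, or without WT replicates 1 and 2, the count was also 0 of 6. All 6 had higher means in KO, and the groups of each overlapped, where 1.4% of all genes did not overlap.

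*Lag3* stood at 2.09, 4.87, 3.50, 4.59 and 3.68 CPM in WT and at 3.06, 4.84, 7.03, 6.57 and 9.28 CPM in KO. KO replicates 3, 4 and 5 lay above every WT library. Those KO libraries hold *Xist* and next to no Y-linked transcripts, as do WT replicates 3 and 5, while WT replicates 1, 2 and 4 hold Y-linked transcripts. Sex was thus uneven between the groups. The log2 fold change of *Lag3* was 0.72 (SE 0.34), with an adjusted p of 0.316 and an unadjusted p of 0.0542. Without the library labelled KO replicate 1 the log2 fold change was 0.89 and the unadjusted p 0.0149 (edgeR). In that fit 4006 genes had an unadjusted p under 0.05. With *Ptms* at 191.5 to 671.6 CPM in KO and 216 to 309 CPM in WT, *Lag3* per 100 CPM of *Ptms* overlapped between the groups, at 1.38 to 1.95 and 0.964 to 1.81.

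*Gzmb* stood at 0, 0.174, 0.294, 0.226 and 0 CPM in WT and at 0.291, 1.02, 0.403, 0.238 and 0.902 CPM in KO. Only WT replicate 3 reached into the KO range, and the log2 fold change was 2.05 (SE 1.04), with an adjusted p of 0.334. *Nkg7* stood at 0, 0.0683, 0.617, 0.327 and 0.115 CPM in WT and at 0.107, 0.410, 0.668, 0.397 and 0.852 CPM in KO, with a log2 fold change of 1.13 (SE 0.95) and an adjusted p of 0.511. *Pdcd1* stood at 0 in WT replicates 1, 2 and 5 and at 0.308 and 0.281 CPM in replicates 3 and 4, against 0.119 to 0.505 CPM in all 5 KO libraries. The adjusted p of *Pdcd1* was 0.544.

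*Gzma* (0.0497 to 0.382 CPM in WT, 0.0874 to 0.591 CPM in KO) and *Prf1* (0 to 0.149 and 0 to 0.410 CPM) had unadjusted p of 0.415 and 0.285. Of the members not tested, *Ifng* was at 0 in all libraries but KO replicate 3, *Gzmk* had 8 counts over the WT and 31 over the KO libraries, and *Fasl* 21 and 43. *Eomes* alone had a higher mean in WT, 0.106 against 0.0466 CPM, from 55 and 20 counts, and was at 0 in 3 KO libraries.

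T cell markers summed to 1.23 to 3.99 CPM in WT and 1.97 to 6.92 CPM in KO, and the 9 members without *Lag3* to 0.254 to 1.89 and 1.18 to 3.13 CPM. In the AAV cohort the T cell sums were 1.42 to 3.37 CPM with AAV-PRDM16 and 2.92 to 27.5 CPM with AAV-GFP. The 9 members without *Lag3* summed there to 0.144 to 0.796 and 0.619 to 10.6 CPM. The cohorts were not compared by a test. Across the 10 untreated libraries the mean standardized level of the 6 tested members correlated with the T cell sum (r = 0.888), with lymph node stroma (0.878, at 0.182 to 2.39 CPM) and with the hemoglobin genes of erythrocytes (0.848, at 149 to 2330 CPM). The r was 0.294 for the CD8 and 0.432 for the NK markers there. The 9 members without *Lag3* held 19.6 to 47.4 counts per 100 T cell marker counts in WT and 43.1 to 68.7 in KO, ranges that overlap. These sums moved with the members, and their part in the difference was not tested. The 8 genes most like the members were *Psmb8* (0.963), *Rhbdf2* (0.963), *H2-D1* (0.955), *Haus5* (0.954), *Shisa5* (0.953), *Dll4* (0.946), *Gpr153* (0.945) and *Mindy4* (0.945). *Psmb8*, an immunoproteasome subunit, and *H2-D1*, a class I antigen-presenting molecule, are raised by interferon gamma, whose own gene had 7 counts over these libraries.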

How the data were processed

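BAT RNA of 22 mice had been sequenced by the authors from SureSelect XT HS2 mRNA libraries. The authors deposited 1 table of raw counts per cohort, with no normalization. The submitters' processing notes name bcl2fastq 2.20, Trimmomatic 0.36, HISAT2 and GRCm38.p6, and the counting tool, annotation release, strand and duplicate handling are not given in the sources used here. Symbols and exon lengths came from GENCODE annotation of GRCm38, which matched 55141 of 55487 identifiers.

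Counts were filtered (filterByExpr, 17869 and 18899 genes), scaled by TMM and compared with the quasi-likelihood test of edgeR 4.0.16 in R 4.3.3, two-sided, with Benjamini-Hochberg adjustment over all genes tested and a threshold of 0.05. The AAV fit used all 12 libraries. Named genes were the 10 members, up to 4 genes of highest level per related list, and the 8 genes most like the members by Pearson's r of log2 CPM with a prior count of 2. The comparisons were repeated with a Wald test (DESeq2 1.42.0), with RLE size factors, unfiltered, with a minimum of 0.5 CPM in 1 library, by voom of limma 3.58.1 with quality weights, with the replicate number as a block, leaving out each library, on only the groups compared, without WT replicates 1 and 2 and with a Y-linked term. The fits were tested on simulated data. Each library was taken as 1 mouse, and p-values measure the spread between libraries. The members and lists were chosen with earlier results of these data known. A result of 1 listed gene is not reported here.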

Additional observations from a re-analysis of the deposited data

Results flagged for a closer look

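In the untreated groups of 5 libraries, 3 member levels lay far from the other 4 of their group: *Gzmk* at 0.0623 CPM in WT replicate 4, *Ifng* at 0.0807 CPM in KO replicate 3 and *Fasl* at 0.132 CPM in WT replicate 4. For *Gzmk* and *Ifng* the other 4 libraries were at 0, and for *Fasl* 3 were at 0. They rest on 8, 7 and 17 counts. Where the other 4 libraries are at 0, any count at all is marked by this rule. No chance rate can therefore be given for these marks.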

How the results depend on the processing

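The counts of members called at an adjusted p of 0.05 were 0 in each of the 9 comparisons with edgeR, and stayed at 0 in the genotype and interaction comparisons under every alternative run, though DESeq2 gave 6, 2 and 3 members no adjusted p in the genotype comparisons with AAV-GFP, with AAV-PRDM16 and averaged. For the virus average the count was 6 with DESeq2, 1 with RLE scaling, 2 without a filter and 0 to 6 with 1 library left out. Over all genes the calls were 602 with DESeq2, 76 with RLE scaling and 144 without a filter, against 7 in the main fit. The count of members was 3 with DESeq2 for the virus in WT, the virus in KO and KO + AAV-PRDM16 against WT + AAV-GFP. DESeq2 called 152, 266 and 157 genes in all there. Members at an unadjusted p under 0.05 went from 7 to 3 for the virus in WT with only the groups compared or the highest AAV-GFP library of each genotype left out, and to 4 to 9 with 1 library left out. All genes at that p, in either direction, went from 1377 to 1443 with only the groups compared and to 1807 without those highest libraries. For KO + AAV-PRDM16 against WT + AAV-GFP the members at that p went from 7 to 4 with only the groups compared and to 5 to 8 with 1 library left out. All genes at that p went from 1498 to 1379 with only the groups compared. In untreated mice the members at that p went from 0 to 2 with DESeq2 and voom, and to 1 with RLE scaling, without a filter and with the replicate block. All genes at that p went from 2836 to 3493 with DESeq2, 2491 with voom, 2904 with RLE scaling, 3910 unfiltered and 3370 with the block. With 1 library left out the members went to 0 to 1, the 1 being *Lag3* without WT replicate 2, KO replicate 1 or KO replicate 2. All genes at that p numbered 1359, 4006 and 3357 in these fits, in that order. Same-numbered libraries correlated in their deviations with r of -0.09 to 0.15 in the AAV and -0.29 to 0.11 in the untreated cohort, and not every library correlated best with its own number, so the numbers were not taken to pair mice. The block changed no other count by over 1.5 times. The sign of no member turned in the untreated, virus and KO + AAV-PRDM16 against WT + AAV-GFP comparisons, and turned under at least 1 alternative for 9 of 10 in KO minus WT with AAV-GFP and 5 of 10 with AAV-PRDM16. The cause of these changes was not tested. Of the 8 genes most like the members 6 to 7 were shared with prior counts of 0.5 and 5.

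Depth is a limit, since 9 of 10 members had at most 423 counts in any library and the AAV-PRDM16 groups held 0 to 34 counts of each member but *Lag3*. The 3 libraries in each AAV group and the spread within AAV-GFP are others.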
